A study of Canis lupus familiaris with 16 samples.

Results

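UPK3B, WFDC2 and MYRF are 3 genes of canine meningioma that are also known from mesothelium, the flat epithelium that lines the body cavities. They were taken by name from the study's table of genes higher in meningioma than in normal meninges, in which WFDC2 is written WFCD2, and matched by Ensembl identifier to 3 of the 24580 genes of the deposited expression table. UPK3B is ENSCAFG00000013651, WFDC2 is ENSCAFG00000009696 and MYRF is ENSCAFG00000016062. Since the difference between these same meningiomas and controls chose them, that difference is described here with no test.

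RNAseq libraries were made from 13 spontaneous meningiomas of pet dogs and from the normal meninges of 3 healthy research beagles. The labels give 6 tumors of grade I, of transitional (5) or meningothelial (1) subtype, and 7 atypical tumors of grade II. The labels name no treatment for either group. By the study's methods, the controls were leptomeninges flash-frozen after euthanasia, while 11 meningiomas were formalin-fixed and embedded in paraffin and 2 were frozen, so that tumor and fixation cannot be told apart for most libraries. The table numbers the libraries 0 to 12 in the meningioma group and 0 to 2 in the control group without naming the dog. Libraries were not matched to dogs by their expression values, so grade and fixation were not compared.

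Uroplakin 3B, encoded by UPK3B, belongs to a family of membrane proteins that build the plaques of the urothelial surface, and it is widely used as a marker of mesothelial cells. WFDC2, also called HE4, is a small secreted protein with whey acidic protein domains that is made by many lining epithelia and is measured in blood as a marker of ovarian carcinoma. MYRF is a membrane-bound transcription factor that cuts itself to release a nuclear part. It is best known for switching on myelin genes in oligodendrocytes, and it also acts in the mesothelium and in the organs that form from it. Meningiomas arise from arachnoid cap cells, which share epithelial and mesenchymal features.

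Between 2138741 and 7358925 fragments were counted on genes in a meningioma library (median 4095984) and between 2269204 and 7054614 in a control library. Levels are given in FPKM, fragments per kilobase of transcript, scaled to library size, and precision is set by the fragments on the gene. On the principal components of 14686 genes, meningioma libraries 2 and 12 stood apart on component 3, with scores of 70.3 and 67.5 against -34.9 to 14.9 in the others. Meningioma library 6 stood apart on component 4, with a score of 87.6 against -26.5 to 27.6. Whether any of them came from a frozen tumor was not determined here. The part of fixation in their position and in the results that rest on them was not tested. Values with and without these libraries are given where they matter.

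UPK3B was the member with the largest difference between the groups. In the meningiomas it ran from 5.06 FPKM in library 6 through a median of 20.0 FPKM to 46.2 FPKM in library 8. The 3 controls had 4.35, 3.11 and 1.08 FPKM, in the order of their numbers. All 13 meningioma libraries thus lay above all 3 controls, a separation that 1.92% of the 14345 tested genes showed in that direction. A gene was tested where 3 or more libraries held 10 or more of its fragments. Its mean was 21.0 ± 11.2 FPKM (SD, n = 13) in tumors against 2.85 ± 1.65 FPKM (SD, n = 3) in controls, and its log2 fold change was 2.88 with a standard error of 0.62.

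The lowest UPK3B values rest on few fragments. Control library 2 had 19 fragments (95% exact Poisson interval 11.4 to 29.7), control library 1 had 29 and control library 0 had 115. In meningioma library 6 there were 73 fragments, with an interval of 57.2 to 91.8. The counting error was 11.7% there and 9.33% in control library 0, so the gap between 5.06 and 4.35 FPKM was not detectable at this depth. These intervals cover counting error only, because reads without molecular identifiers are not independent molecules. The highest values were 12.2 and 16.2 times the control mean, in meningioma libraries 7 and 8. The log2 fold change was 3.36 without control library 0 and 2.48 without control library 2.

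**Figure D1:**
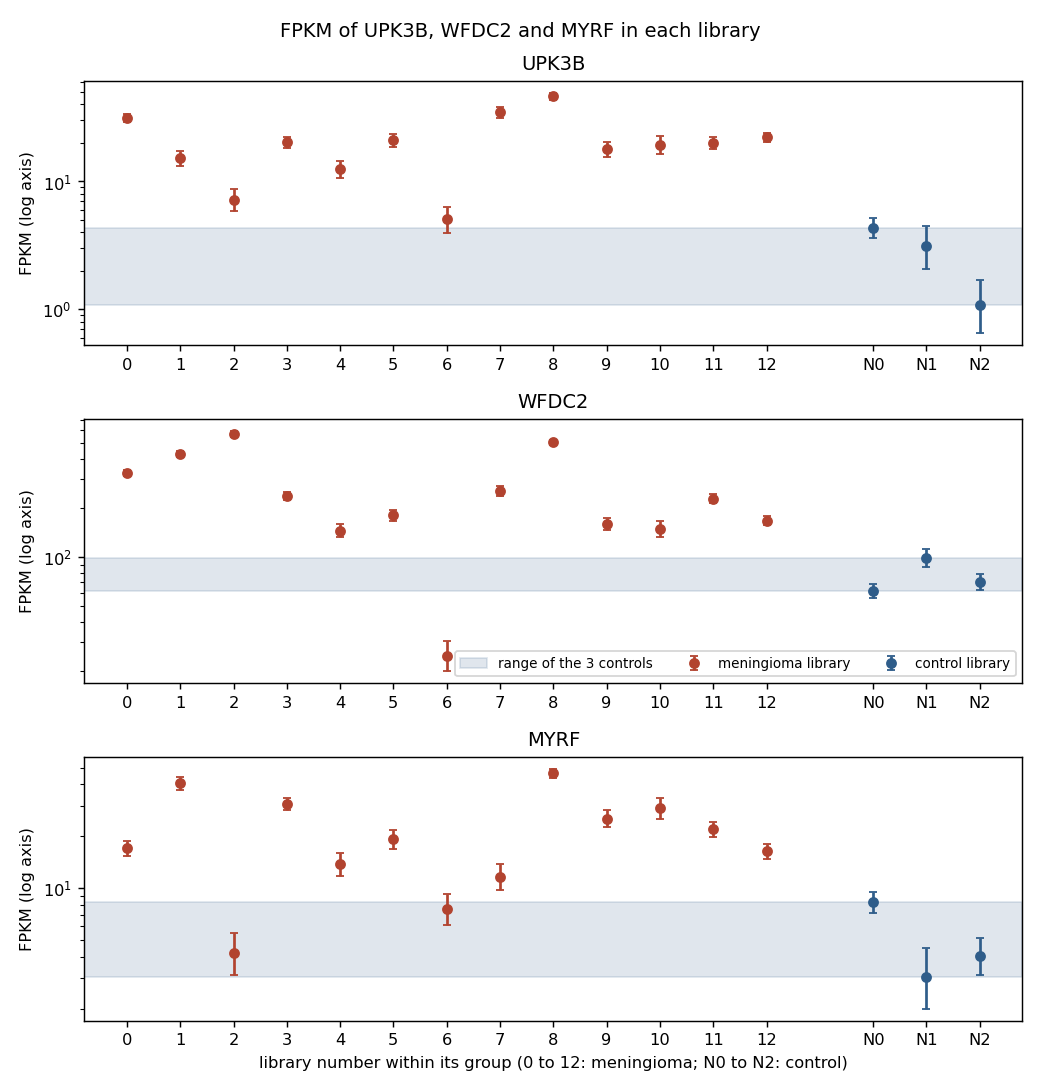
FPKM (log axis) of UPK3B, WFDC2 and MYRF by library number, for 13 meningiomas (red) and 3 controls (blue). Bars are 95% exact Poisson intervals of the fragments, scaled to FPKM, and the band is the range of the controls. Library 6 lies below the band for WFDC2, and libraries 2 and 6 lie within it for MYRF.

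WFDC2 was already high in the normal meninges. The controls had 62.0, 99.2 and 70.4 FPKM, and their mean lay above 93.9% of the tested genes. The meningiomas ran from 24.8 FPKM in library 6 through a median of 228.8 FPKM to 571.2 FPKM in library 2. Library 6 was the one meningioma below all controls, with 90 fragments (interval 72.4 to 110.6), and the other 12 lay above all of them. The mean was 260.7 ± 157.7 FPKM (SD, n = 13) against 77.2 ± 19.5 FPKM (SD, n = 3), with a log2 fold change of 1.76 (standard error 0.63), or 1.87 without library 6. In 10 of the 13 meningioma libraries WFDC2 was at least 2-fold above the control mean.

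MYRF overlapped between the groups. The controls had 8.32, 3.06 and 4.06 FPKM, of which control library 1 rested on 26 fragments and control library 2 on 65. In the meningiomas MYRF ran from 4.21 FPKM in library 2 through a median of 19.3 FPKM to 46.2 FPKM in library 8. Libraries 2 and 6, at 4.21 and 7.56 FPKM, fell within the range of the controls, and the other 11 lay above it. All 3 members had at least 11 meningioma libraries above all controls, which held for 8.35% of the tested genes. The mean of MYRF was 21.8 ± 12.3 FPKM (SD, n = 13) against 5.15 ± 2.79 FPKM (SD, n = 3). Its log2 fold change was 2.08 with a standard error of 0.60, and it was 2.62 without control library 0, which had the highest control value. In bulk tissue, more cells that make a transcript and more of it per cell cannot be told apart, for these genes as for all others below.

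By the size of the estimated log2 fold change, UPK3B held place 76 among the 14345 tested genes, MYRF place 227 and WFDC2 place 346. Among the 41 identifiers of the study's table of higher genes, they held places 13, 32 and 38. The median log2 fold change over all tested genes was 0.06. Over 16 fits that each left out 1 library, the log2 fold change ran from 2.48 to 3.36 for UPK3B, from 1.83 to 2.62 for MYRF and from 1.61 to 1.99 for WFDC2.

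**Figure D2:**
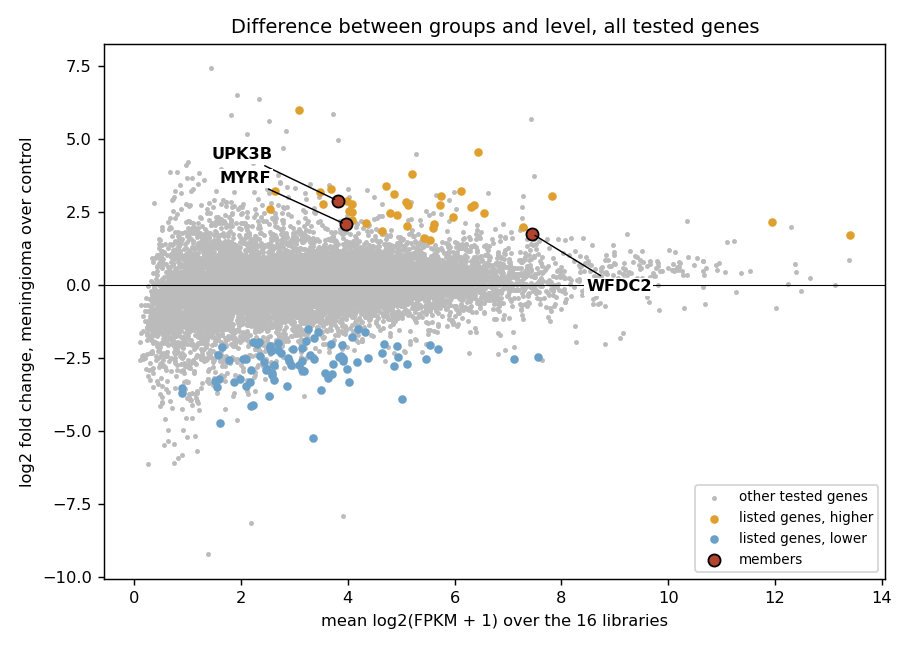
Log2 fold change of meningioma over control against mean log2(FPKM + 1) over the 16 libraries, for the 14345 tested genes. Genes of the study's tables are colored, and the members are labelled at log2 fold changes of 2.88 (UPK3B), 2.08 (MYRF) and 1.76 (WFDC2).

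The levels of the 3 genes, which the choice of members did not use, are set against each other in FPKM, which is per length. The comparison depends on the length that the authors' processing gave each gene, and these lengths were not checked here. WFDC2 was above UPK3B and above MYRF in 13 of 13 meningioma libraries and in 3 of 3 controls. On the scale of log2(FPKM + 1), WFDC2 exceeded UPK3B by 3.45 ± 1.00 (SD, n = 13) in the meningiomas (exact two-sided permutation test over libraries, adjusted p = 0.000366 over 3 pairs). It exceeded MYRF by 3.43 ± 1.23 (SD, n = 13) in the same exact permutation test (adjusted p = 0.000366). The unadjusted p of both, 0.000244, is the smallest that 13 libraries can give in this exact test. It measures how consistent the order was over libraries, and an error in a gene's length would not show in it. MYRF and UPK3B did not differ beyond their spread, with a mean difference of 0.02 (95% interval -0.43 to 0.46) and MYRF above in 8 of 13 libraries (exact permutation test, adjusted p = 0.941).

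WFDC2 thus came first in every meningioma library, with UPK3B and MYRF in either order, while the ratios were not constant. WFDC2 was 10.5 times UPK3B in the median meningioma library, 4.91 times in library 6 and 79.2 times in library 2. Against MYRF it was 10.4 times in the median, 3.28 times in library 6 and 135.6 times in library 2, where the next highest ratio was 22.0. MYRF over UPK3B ran from 0.335 in library 7 to 2.67 in library 1. In the controls WFDC2 was 14.3, 31.9 and 65.0 times UPK3B.

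All 3 members varied more between meningiomas than most genes. The SD of log2(FPKM + 1) over the 13 libraries was 1.13 for WFDC2, 0.89 for MYRF and 0.81 for UPK3B, against a median of 0.50 over the 14345 tested genes. These SDs were larger than those of 92.7%, 86.0% and 81.6% of the tested genes. Leaving out library 6 took the SD of WFDC2 down to 0.70. Library 8 was the highest for UPK3B and MYRF and the next highest for WFDC2. Library 6 was the lowest for UPK3B and WFDC2 and the next lowest for MYRF. Library 2 went both ways, with the highest WFDC2 and the lowest MYRF.

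The pairs of members were compared over the 13 meningioma libraries, a relation that the difference from the controls does not fix. For UPK3B and MYRF, Pearson's r was 0.62 (permutation p = 0.0231, adjusted p = 0.0692 over 3 pairs) and Spearman's rho was 0.33 (permutation p = 0.270, adjusted p = 0.406). Without libraries 2 and 6, the 2 farthest from the median of UPK3B, r fell to 0.08, so the relation rests on them. For UPK3B and WFDC2, r was 0.51 (permutation p = 0.0828, adjusted p = 0.124) and rho was 0.38 (permutation p = 0.200, adjusted p = 0.406), and r was 0.57 without libraries 2 and 6 and 0.83 without library 2 alone. It was 0.014 without library 6 alone.

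MYRF and WFDC2 had an r of 0.27 (permutation p = 0.362, adjusted p = 0.362) and a rho of 0.21 (permutation p = 0.492, adjusted p = 0.492). Their r was 0.53 without libraries 2 and 6, 0.73 without library 2 alone and -0.095 without library 6 alone. None of the 3 pairs passed an adjusted p of 0.05 over all 13 libraries, and r with 1 library left out ran from 0.48 to 0.75 for UPK3B and MYRF. For the other pairs it was highest without library 2 and lowest without library 6. Depth is a measure the members could share, and r with the log2 of the total fragments was 0.38 for UPK3B, 0.37 for WFDC2 and 0.14 for MYRF (permutation p = 0.200, 0.215 and 0.659, adjusted p = 0.323, 0.323 and 0.659). Spearman's rho with it was 0.48, 0.54 and 0.19 (permutation p = 0.0972, 0.0588 and 0.542).

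**Figure D3:**
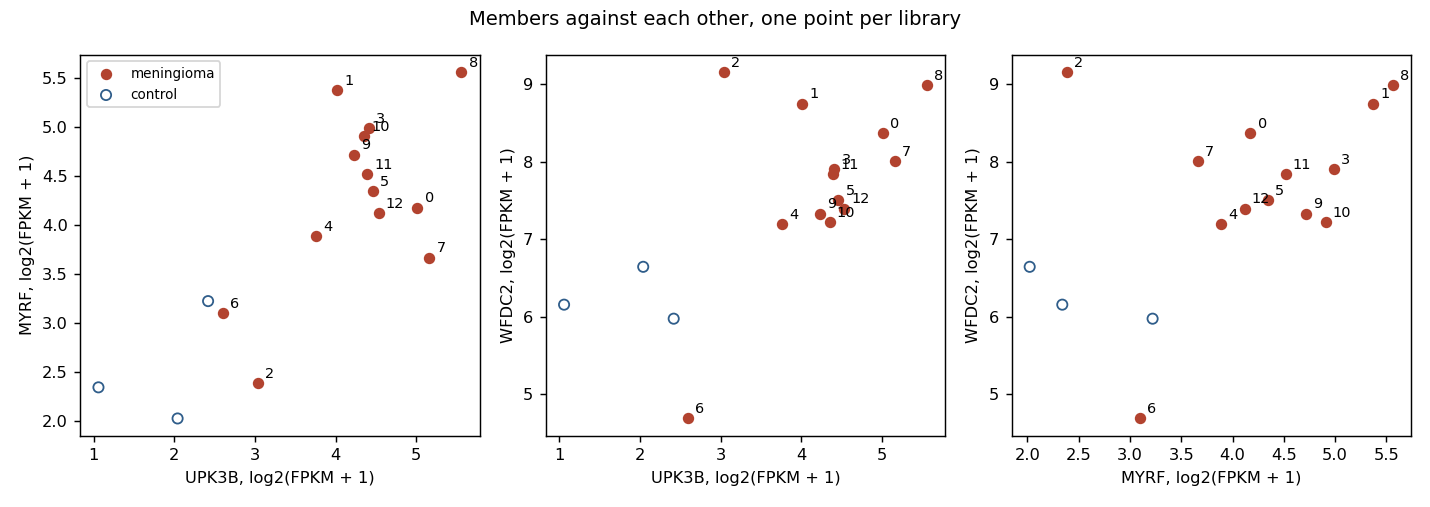
Log2(FPKM + 1) of each pair of members, with 1 point per library, meningiomas filled and numbered and controls open. Library 8 is high in all 3 panels and library 6 low, while library 2 has the highest WFDC2 beside the lowest MYRF.

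Other genes were ranked by how closely they followed each member, by Pearson's r of log2(FPKM + 1) over the 13 meningioma libraries. The r values are descriptions, and they can be named only for the 123 other listed genes that have a symbol. Over all 14344 other tested genes, 95% of the r values with UPK3B lay between -0.57 and 0.56, those with WFDC2 between -0.67 and 0.68 and those with MYRF between -0.61 and 0.61.

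PAMR1, a secreted protein with a peptidase-like domain, was among the listed genes most like UPK3B (r = 0.76, or 0.42 without libraries 2 and 6) and most like MYRF (r = 0.81, or 0.60). CILP2, a cartilage matrix protein, had an r of 0.72 with UPK3B (0.34 without libraries 2 and 6). Its level went the other way between the groups, at 2.35 ± 1.39 FPKM (SD, n = 13) in tumors against 41.9 ± 46.9 FPKM (SD, n = 3) in controls, and all 13 meningioma libraries lay below all controls, as for 3.65% of the tested genes. DACT2, an inhibitor of WNT and TGF-beta signaling, had an r of 0.79 with MYRF (0.59 without libraries 2 and 6). The genes least like UPK3B were AMOT, a scaffold protein of cell junctions, at -0.55, and TF, transferrin, also at -0.55. Least like MYRF among the listed genes were KITLG, the ligand of the KIT receptor, at -0.77, and FAM198B at -0.70. Without libraries 2 and 6 these were -0.42 and -0.49.

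The listed genes most like WFDC2 were others. MEDAG, known from fat cell differentiation, had an r of 0.82 over 13 libraries and 0.62 without libraries 2 and 6. CTPS1, which makes the nucleotide CTP, had an r of 0.79, and AMPD3, an AMP deaminase, had one of 0.72. Without library 6 alone these were 0.34 and 0.14, and CTPS1 and AMPD3 were at their lowest, 9.19 and 1.64 FPKM, in library 6. The listed genes least like WFDC2 were SPTBN5, a spectrin, at -0.78 and ETS1, a transcription factor of endothelium and lymphocytes, at -0.71. Both had their highest meningioma value in library 6, and without it their r was -0.16 and -0.44. SPTBN5 was barely detected in the meningiomas, with a median of 0.28 FPKM against 3.71 FPKM in library 6. Among genes without a symbol, ENSCAFG00000029080 was closest to WFDC2, with an r of 0.93, and ENSCAFG00000017867 was closest to MYRF, with an r of 0.91. Without libraries 2 and 6 these were 0.82 and 0.80.

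**Figure D4:**
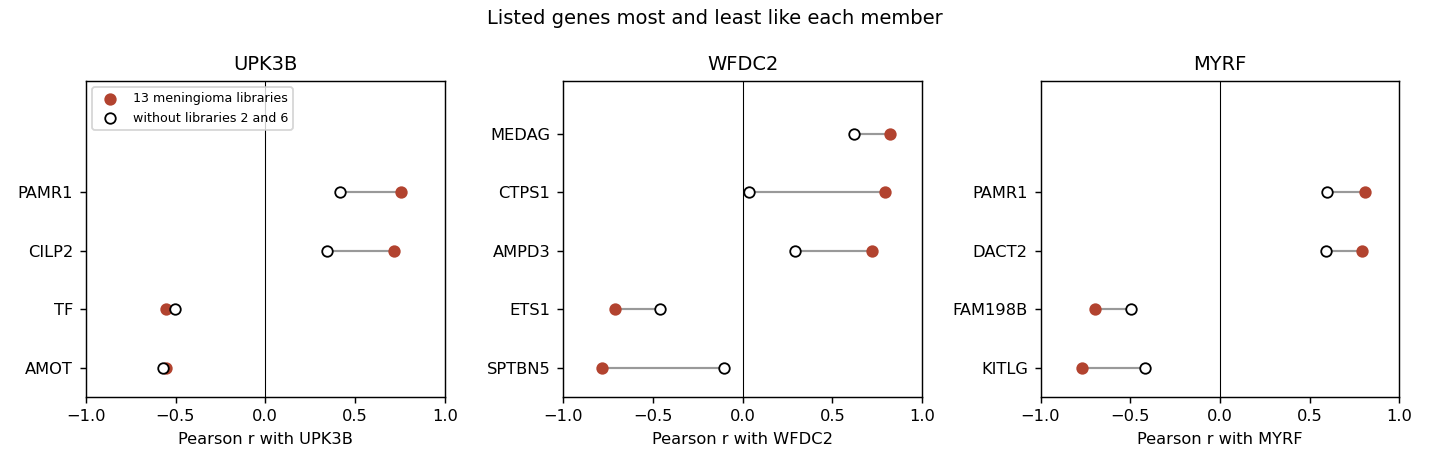
Pearson's r of log2(FPKM + 1) with each member for listed genes most like and least like it. Filled points use 13 meningioma libraries and open points leave out libraries 2 and 6. The r of CTPS1 with WFDC2 moves from 0.79 to 0.04, and that of AMOT with UPK3B from -0.55 to -0.57.

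The name mesothelial could be checked only in part. Of 14 mesothelial genes, 4 had an identifier in the study's tables, which alone pair identifiers with symbols here. They were the 3 members and PDPN, and MSLN, WT1, CALB2 and the keratins were not analysed here. PDPN encodes podoplanin, a membrane mucin of mesothelium, lymphatic vessels and arachnoid cells. It averaged 152.7 ± 117.8 FPKM (SD, n = 13) in tumors against 30.1 ± 13.9 FPKM (SD, n = 3) in controls, and rose by 2.45 on the log2 scale (edgeR quasi-likelihood test, adjusted p = 0.0398). Its highest value, 478.1 FPKM, was in library 2, where UPK3B was next to lowest, and it had 131.9 FPKM in library 6. Over the 13 meningioma libraries the r of PDPN was -0.29 with UPK3B, -0.43 with MYRF and 0.25 with WFDC2. Without libraries 2 and 6 these were 0.095, -0.008 and 0.21. The study had chosen PDPN as higher on these samples too, so its rise and adjusted p are not independent evidence. With control library 0, 1 or 2 left out, its adjusted p from edgeR was 0.123, 0.137 or 0.243.

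Of a list of genes of surface epithelia and cell junctions, 4 with an identifier are described here. The adjusted p from edgeR's quasi-likelihood test was under 0.05 for 3 of the 4, all higher in the meningiomas, which is the case for 1.31% of the tested genes. The study had chosen all 4 as higher on these same samples. Their direction, their adjusted p and the comparison with all tested genes are therefore not independent evidence. KLF5, a transcription factor of proliferating epithelium, rose by 3.23 on the log2 scale (standard error 0.37, adjusted p = 8.31e-05), with all 13 meningioma libraries above all controls. GJB2, which encodes the gap junction protein connexin 26, rose by 3.07 (standard error 0.71, adjusted p = 0.0176). Its lowest tumor value, 61.5 FPKM in library 6, was level with the highest control. PERP, a desmosome protein and p53 target, rose by 2.09 (standard error 0.44, adjusted p = 0.0103). With control library 0, 1 or 2 left out, the adjusted p of GJB2 was 0.0853, 0.0810 or 0.152 and that of PERP was 0.0676, 0.0482 or 0.0929 in the same test.

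CTSE, an aspartic protease of gastric epithelium, did not pass (log2 fold change 3.81, standard error 1.51, edgeR adjusted p = 0.163). CTSE ran from 3.11 FPKM in library 1 to 573.9 FPKM in library 2. Of these 4 genes, 1 passed when control library 0 or 2 was left out and 2 when control library 1 was. KLF5 passed in all 24 alternatives run. With DESeq2, 4 of the 4 passed.

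**Figure D5:**
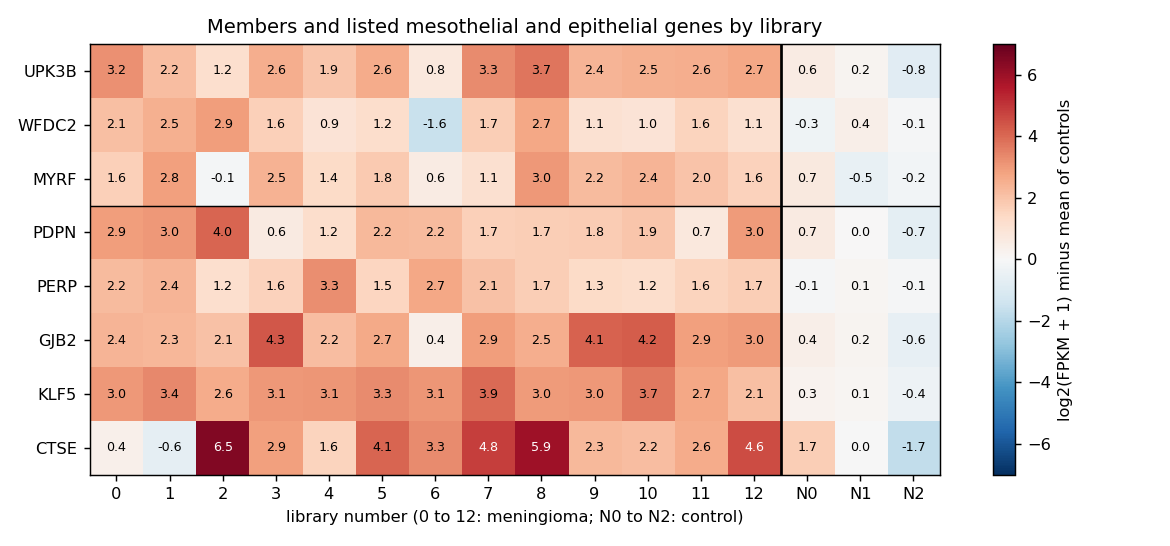
Log2(FPKM + 1) minus the mean of the controls, for the 3 members (above the line) and 5 listed mesothelial and epithelial genes (below it), in 13 meningioma libraries and 3 controls. Among the meningiomas MYRF is lowest in libraries 2 and 6, and KLF5 is above the controls in every meningioma library.

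Markers of other cell types differed between the groups as well. Summed over the 16 endothelial genes, FPKM ran from 70.4 to 237.1 in the meningiomas and from 597.2 to 988.6 in the controls, and 16 of 16 were lower in the meningiomas (adjusted p under 0.05, against 3.55% of tested genes). The sum of 7 mural genes, of smooth muscle cells and pericytes, was 15.3 to 56.6 FPKM against 141.7 to 345.9 FPKM, and 7 of 7 were lower. For 10 fibroblast and matrix genes it was 186.6 to 541.5 FPKM against 1612 to 2358 FPKM, and 8 of 10 were lower. All of these genes come from the study's list of genes lower in these same meningiomas, because only listed genes had a symbol here. That choice favored lower sums and counts, so the share of all tested genes is no fair standard for them. Their part in the difference of the members was not tested.

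Of 6 genes of neurons and neuroendocrine cells, 3 had an identifier, CHGA, RIMS1 and NOL4. They summed to 22.0 to 221.6 FPKM in the meningiomas and 14.8 to 23.3 FPKM in the controls. By edgeR, 1 of these 3 was higher in the meningiomas (adjusted p under 0.05, against 1.31% of tested genes). The sum of 7 immediate-early genes was 101.6 to 2071 FPKM against 49.3 to 87.6 FPKM, and 1 of the 7 was higher. All of these genes come from the study's list of genes higher in these same meningiomas. That choice favored higher sums and counts, so they are not independent evidence. In library 8, where UPK3B and MYRF were highest, the endothelial sum was 130.9 FPKM and the immediate-early sum 210.8 FPKM. In library 6 they were 190.5 and 343.7 FPKM, and in library 2 they were 173.2 and 1796 FPKM. For oligodendrocytes, in which MYRF is best known, MYRF was the only gene of a list of 9 with an identifier, none of 3 astrocyte or 4 leukocyte markers had one, and of 6 arachnoid markers only PDPN had one. Brain tissue in a library, and its part in the level of MYRF, was not tested.

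Neighboring copies can share reads. In the RefSeq annotation of UU_Cfam_GSD_1.0, another dog assembly used here only for the order of genes, the protein-coding gene next to UPK3B is the related UPK3BL2. The fragments of UPK3B, WFDC2 and MYRF were whole numbers in all 48 values, but only 1364 of 393280 values over all genes were not whole. Sharing of reads between UPK3B and UPK3BL2 was not tested. MYRF lies between TMEM258 and DAGLA, and WFDC2 has SPINT3 next to it.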

How the data were processed

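RNAseq of 13 meningiomas and 3 control meninges was measured in stranded, ribosomal RNA-depleted libraries. Per the labels and methods, the authors trimmed reads (cutadapt 1.8), removed ribosomal and small RNAs, aligned to Ensembl CanFam3 (TopHat2 2.0.13) and ran Cuffdiff 2.2.1. The deposited table gives, per gene and library, an estimated count of fragments, a signal made by the authors by dividing them by 1 size factor per library, and FPKM computed by the authors from it. Counts not whole (1364 of 393280 values) were rounded.

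Counts were fitted with edgeR 4.0.16 (quasi-likelihood, TMM, at least 10 fragments in at least 3 libraries, Benjamini-Hochberg over 14345 genes). Each standard error was taken as the fold change (log2) divided by the root of F. Alternatives used DESeq2 1.42.0, limma 3.58.1 on log2 FPKM (pseudocounts 1 and 0.1), other size factors, no filter and left-out libraries. Correlations used 100000 permutations, and level differences exact sign flips, in Python 3.11.15 with numpy 2.4.6. The methods were tested on simulated data. The members and lists were chosen with earlier results of these data known. Symbols came from the study's tables (124 identifiers). Named genes are the members, for each the 3 listed genes most like it and the 2 least like it, and listed mesothelial and epithelial genes; 1 gene that this rule names is not reported here. Replicates are separate dogs.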

Additional observations from a re-analysis of the deposited data

How the results depend on the processing

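No paired analysis was possible because tumors and controls came from different dogs and the libraries carry numbers that match no number in the labels. This concerns tumor against control, while the levels of the members were compared within each library. Of 262 recomputed values, 245 were counted as kept, by a rule that differed with the kind of value. Correlations and level differences had to keep their direction and side of the threshold. Fold changes had to keep their sign and move by less than the spread between libraries. SDs had only to move by less than their own size, and counts to stay within a fixed fold. A correlation that fell to 0.014 was thus counted as kept, and leaving out library 6 entered more than once. The tally is therefore no measure of stability. The log2 fold changes of the members kept their sign in all 25 alternatives each, and the lowest values, 2.43, 1.46 and 1.76 for UPK3B, WFDC2 and MYRF, came from limma on log2(FPKM + 1). The correlations were least stable. With 1 meningioma library left out, r ran from 0.48 to 0.75 for UPK3B and MYRF, from 0.014 to 0.83 for UPK3B and WFDC2 and from -0.095 to 0.73 for MYRF and WFDC2. The adjusted p was under 0.05 for UPK3B and MYRF without library 1 (r = 0.71, adjusted p = 0.0303 by permutation) or library 7 (r = 0.75, adjusted p = 0.0177 by permutation). For UPK3B and WFDC2 it was so without library 2 (r = 0.83) or libraries 2 and 12 (r = 0.84), and for MYRF and WFDC2 likewise (r = 0.73 in each). The value of -0.095 for MYRF and WFDC2 came without library 6. For the likeness of other genes, leaving out library 6, or libraries 2 and 6, was chosen after seeing the data. The causes were not tested. The level of MYRF minus that of UPK3B ran from -0.10 to 0.14 with 1 library left out. Genes with an adjusted p under 0.05 numbered 697 by edgeR and 1364 by DESeq2. Leaving out 1 library gave 169 to 931, with 169 in the absence of control library 2, 245 of control library 0 and 350 of control library 1. With 19 to 115 fragments, the UPK3B values of the controls are among the least precise of the members. In control library 1, MYRF had 26 fragments against 29 for UPK3B.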
